A study of Mus musculus with 6 samples.

Results

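Golgins are long coiled-coil proteins anchored by one end to the Golgi apparatus, and the 10 genes described here are Tmf1 and 9 other members of this family, Golga1, Golga2, Golga3, Golga4, Golga5, Golgb1, Gcc1, Gcc2 and Trip11. They were chosen by symbol from a table of 21937 genes, and all 10 were present in it. Tmf1 was singled out because it had passed the adjusted p threshold in this same comparison, so its values are given as a description and support nothing further.

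Plasmid for an shRNA against Nat14 (shNat14, 3 libraries) or for a control shRNA (NTC, 3 libraries) had been electroporated into cortical progenitors of mouse embryos on embryonic day 14.5. Cortices were dissected and dissociated at embryonic day 18.5, and live GFP-positive cells were sorted for RNA sequencing. The labels do not say which plasmid carried GFP, and the sorted cells can hold any cell type that arose from, or took up, what was electroporated. The labels name no strain and do not say if separate embryos or litters lie behind the 3 libraries of each group, so p-values measure a spread between libraries that may be technical. The deposited table holds the authors' own comparison, with no values per library, no standard errors and no depths, so none of the values below carries a spread.

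Golgins project from the rims of the Golgi cisternae and catch incoming transport vesicles, each at its own part of the stack. Most are held there by small GTPases of the Rab, Arf or Arl families, and the rest by a membrane-spanning tail or a GRASP partner. In developing cortical neurons the Golgi is placed at the base of the leading or apical process and supplies membrane and glycoproteins to the growing cell.

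Tmf1, TATA element modulatory factor 1, is a Rab6-binding golgin of the Golgi rims that was first described as a DNA-binding protein. In the authors' deposited table its log2 fold change was 1.95, a level 3.87 times as high in shNat14 as in NTC, at a mean level of 6.80 log2 CPM, read counts scaled to library size. The authors' deposited table gave it an adjusted p of 2.87e-06, which ranked 7 by p among all genes. Of the 10 golgins 1 was called at adjusted p under 0.05, where 0.155% of all genes were called in either direction, 0.0547% higher and 0.1% lower. Nothing is read from that count, since the call itself chose Tmf1. The last gene inside the threshold in the authors' deposited table was the B-cell adaptor Blnk (adjusted p = 0.0493) and the first outside it was Gm7444 (adjusted p = 0.0515).

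The column names do not state the direction of the fold change. It was read from the shRNA's target Nat14, for which the authors' deposited table gave a log2 fold change of -3.31, so the sign of Nat14 is no independent check of the labels.

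**Figure D1:**
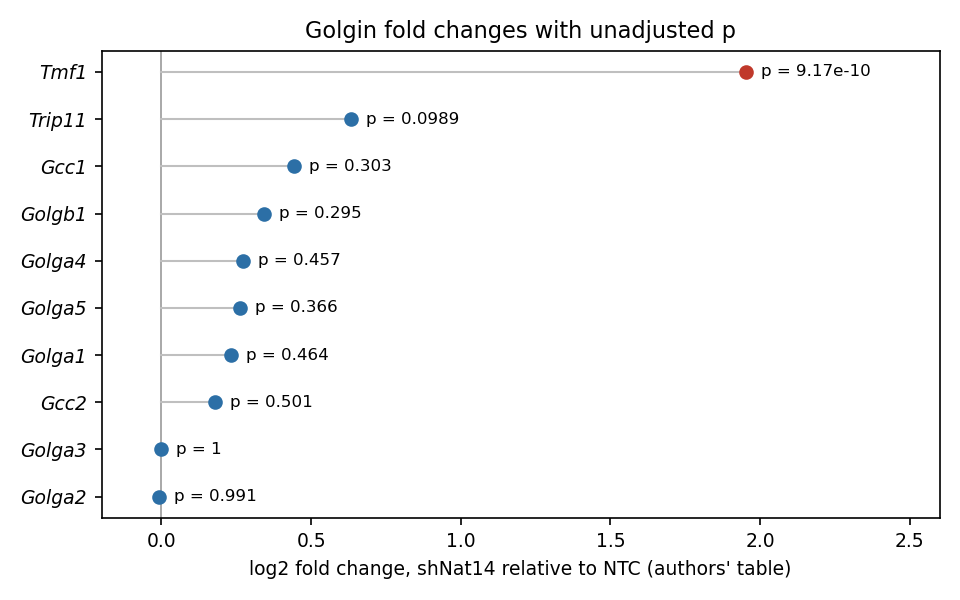
Log2 fold change of each golgin gene in shNat14 relative to NTC, from the authors' deposited table, with its unadjusted p beside the point. Tmf1 (red) lies at 1.95 and the other 9 genes (blue) lie between -0.01 and 0.63.

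By the authors' deposited table the other 9 golgins lay between -0.01 and 0.63 on the log2 scale, with a median of 0.26, or 1.20-fold. Of these, 7 had a positive and 2 a negative fold change. None of the 9 was called, and 0 of them had an unadjusted p under 0.05 by the authors' test, where 5.04% of all genes did. Of the 17400 genes above the lowest level, 3.51% were higher and 2.84% lower at that threshold. Over the 10969 genes at or above the median mean level, a set that holds all 10 golgins, the median log2 fold change was 0.03 and 53.6% were positive. Tmf1 stood 1.32 log2 units above the next golgin, Trip11, and 1.69 above the median of the other 9. The difference between Tmf1 and the other golgins was not tested, because the table gives no standard errors.

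The family was sorted by GRIP domain, membrane-spanning tail or place on the cis side of the Golgi, with Golga3 and Tmf1 each set apart. The 4 golgins with a GRIP domain, a carboxy-terminal module that binds the trans-Golgi network, ranged by the authors' deposited table from 0.18 to 0.44 on the log2 scale (unadjusted p from 0.303 to 0.501). Gcc1, which encodes GCC88 and acts in traffic from endosomes to the trans-Golgi network, had the highest value of these, 0.44, at a mean log2 CPM of 3.80. The authors' deposited table gave 0.27 for Golga4, encoding golgin-245, and 0.23 for Golga1, encoding golgin-97. These proteins are both recruited by the GTPase Arl1. For Gcc2, encoding GCC185 and next to Tmf1 in mean CPM, the authors' deposited table gave 0.18 (mean log2 CPM 6.26).

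The golgins with a membrane-spanning tail were Golga5, encoding golgin-84, and Golgb1, encoding giantin. The authors' deposited table gave a log2 fold change of 0.26 for Golga5 (p = 0.366) and of 0.34 for Golgb1 (p = 0.295), neither of them called. On the cis side of the stack the members differed in value. Trip11, encoding GMAP-210, which catches small, highly curved vesicles, stood at 0.63 (mean log2 CPM 3.89, p = 0.0989) by the authors' deposited table, which held no smaller p for the 9. The authors' deposited table gave -0.01 (mean log2 CPM 4.27, p = 0.991) for Golga2, which encodes GM130, a partner of p115 and of GRASP65. Golga3, encoding golgin-160, gave a log2 fold change of -0.0025 with p = 1 in the authors' deposited table. Golga2 and Golga3 were thus the members with the least difference between the groups.

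**Figure D2:**
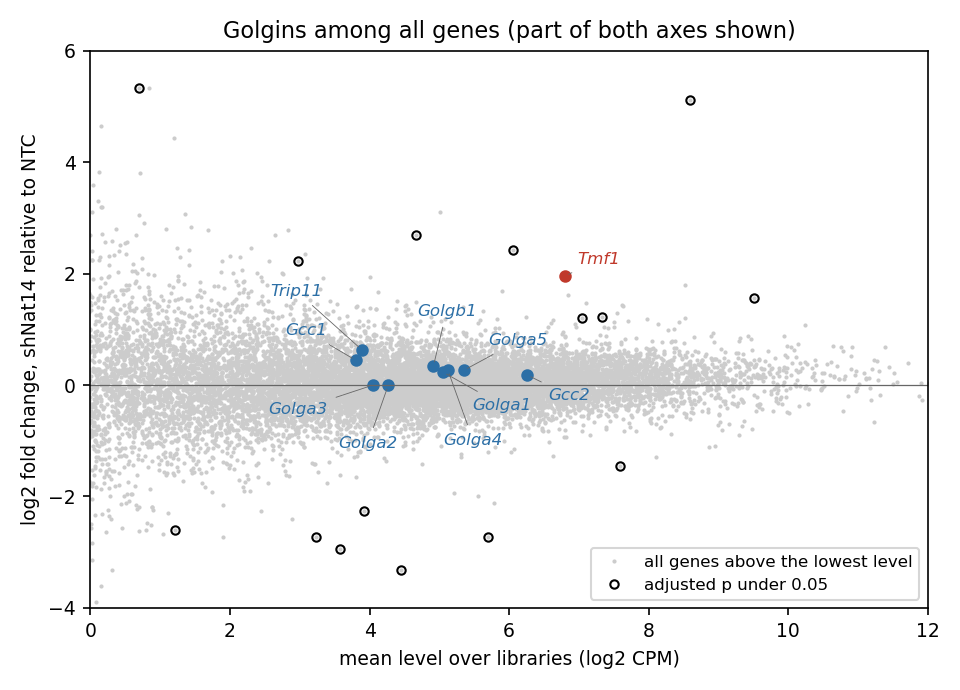
Log2 fold change (shNat14 relative to NTC) against mean level (log2 CPM) for genes above the lowest level, on part of both axes. Golgins are filled points and genes at adjusted p under 0.05 are open circles. Called genes outside these axes, such as Blnk, are not shown. Tmf1, also at adjusted p under 0.05, lies at 6.80 log2 CPM and 1.95, while the other golgins lie within the cloud of all genes at 3.80 to 6.26 log2 CPM.

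Tmf1 was set beside the genes with a mean level at or above its own. That mean covers both groups, so the higher level in shNat14 that chose Tmf1 also raised it. The place of Tmf1 among these genes is therefore a description only. Of the 1935 genes with a mean level at or above that of Tmf1, 1 had a higher fold change in the authors' deposited table. This was Xist, the noncoding RNA of X inactivation, at a log2 fold change of 5.12 and called (adjusted p = 0.0112 by the authors' test). Eif2s3y, Uty, Ddx3y and Kdm5d, 4 genes of the Y chromosome, had values from -1.28 to -0.85 by the authors' deposited table, all negative and none called or at unadjusted p under 0.05. The labels give no sex of the embryos, and the part of a difference in sex between the groups in the value of Tmf1 was not tested. Of the 1935 genes 6 were called, 5 higher and 1 lower, with Tmf1 and Xist among the higher ones. The 3 genes nearest to Tmf1 in the plane of log2 fold change and mean log2 CPM were Nr2f2, Znrf3 and Zfp120, at Euclidean distances of 0.33, 0.57 and 0.80 log2 units. Nr2f2 encodes the transcription factor COUP-TFII, for which the authors' deposited table gave 1.62 (adjusted p = 0.0864). Znrf3, a ubiquitin ligase for Wnt receptors, stood at 1.46 (adjusted p = 0.063) and the zinc finger gene Zfp120 at 1.19 (adjusted p = 0.0148) in the authors' deposited table. This likeness rests on 1 comparison and carries no information on variation between libraries.

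To compare levels between golgins, mean CPM was divided by the length of the annotated exons. Group levels were computed from the mean level and the fold change, on the assumption that both groups weigh equally in the mean. The deposited mean was also taken as the log of a mean of CPM. A mean of logs would give other group levels and shares, which were not computed. On this scale Tmf1 came to 7.98 CPM per kb in NTC and 30.9 CPM per kb in shNat14. In NTC it was the second of the 10, between Golga5 (10.8 CPM per kb) and Gcc2 (7.45 CPM per kb), and in shNat14 it was the first, ahead of Golga5 (12.9 CPM per kb). The other 9 golgins ranged from 1.14 to 10.8 CPM per kb in NTC and from 1.30 to 12.9 CPM per kb in shNat14. Golga5, Gcc2 and Golga1 were the most abundant of them per length in both groups, and Golga3 and Trip11 the least. As a share of the summed CPM of all 10 golgins, Tmf1 made up 15.1% in NTC and 36.9% in shNat14. Without library values it cannot be said which neighbours in this order differ beyond their spread. With the length of the longest coding transcript in place of all exons, Gcc2 (11.0 CPM per kb) and Golga5 (10.9 CPM per kb) both stood above Tmf1 in NTC, and Tmf1 remained first in shNat14.

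**Figure D3:**
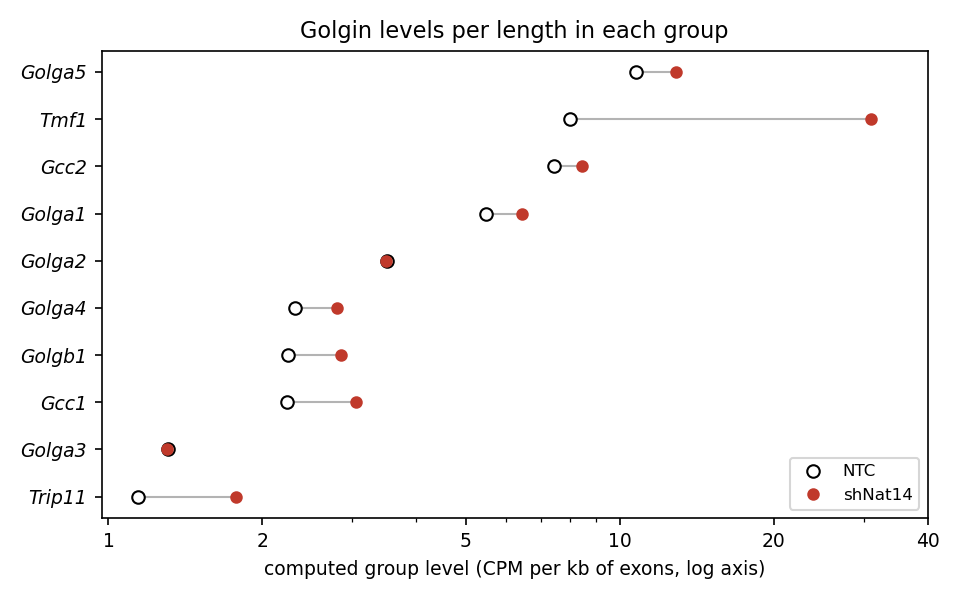
Computed level of each golgin in NTC (open) and shNat14 (filled), in CPM per kb of annotated exons on a log axis. Tmf1 moves from 7.98 to 30.9 CPM per kb, past Golga5 (10.8 and 12.9 CPM per kb).

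Reads in bases shared with another gene could change these counts, by being added or left out, since no source used here says that counting used strand. In the GENCODE annotation no other gene shared exonic bases with Tmf1, Golga1, Golga3, Golga4, Golga5 or Gcc2. Gcc1 shared 5.92% of its exonic bases with Arf5 and 1.10% with Fscn3, both on the opposite strand, and Golgb1 shared 4.21% with the gene model Gm49599 and 0.961% with Gm49600, both on its own strand. Golga2 shared 1.78% with Swi5 and Trip11 0.276% with the model Gm20036. Arf5 itself, an Arf GTPase of the early Golgi, stood at -0.19 in the authors' deposited table.

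The genes beside Tmf1 on chromosome 6 were compared with it, in the order of the RefSeq gene table. On one side the nearest coding gene was Uba3, which encodes the catalytic subunit of the NEDD8-activating enzyme. The authors' deposited table gave Uba3 a log2 fold change of 0.06 (mean log2 CPM 8.01, p = 0.817). Next to it, the authors' deposited table had Arl6ip5, a membrane protein of the endoplasmic reticulum, at -0.26 (mean log2 CPM 7.21, p = 0.407). On the other side Eogt, an O-GlcNAc transferase of the endoplasmic reticulum listed under its older symbol A130022J15Rik, had 0.85 by the authors' deposited table at a lower level (mean log2 CPM 2.39, p = 0.161). Beyond it, the authors' deposited table had Tafa4, under the name Fam19a4, at 3.11 (p = 0.101), at a low mean log2 CPM of 0.02. What set the value of Tafa4 was not tested. None of these 4 neighbours was called. The small nucleolar RNA Gm26175, annotated within Tmf1, was not matched to a row.

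The start of Tmf1 was set beside that of Golga1 because, of the golgins, these 2 hold a motif uncommon among all promoter windows. By the authors' deposited table their log2 fold changes were 1.95 and 0.23. The windows are the 250 bases before the RefSeq start in GRCm38.p6, both on the minus strand and written 5′ to 3′, at chr6:97179125-97179374 for Tmf1 and chr2:39065542-39065791 for Golga1. The longest run of bases that the windows shared was GGCGCATGCGCG, found on either strand in 0.143% of all promoter windows of this length. Capitals mark the palindrome within it, GCGCATGCGC, which matches the motif of the transcription factor NRF1.
Tmf1: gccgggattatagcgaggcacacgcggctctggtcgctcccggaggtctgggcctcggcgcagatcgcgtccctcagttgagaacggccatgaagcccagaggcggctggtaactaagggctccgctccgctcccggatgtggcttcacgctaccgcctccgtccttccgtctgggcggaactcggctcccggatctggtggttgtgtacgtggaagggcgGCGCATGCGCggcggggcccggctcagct
Golga1: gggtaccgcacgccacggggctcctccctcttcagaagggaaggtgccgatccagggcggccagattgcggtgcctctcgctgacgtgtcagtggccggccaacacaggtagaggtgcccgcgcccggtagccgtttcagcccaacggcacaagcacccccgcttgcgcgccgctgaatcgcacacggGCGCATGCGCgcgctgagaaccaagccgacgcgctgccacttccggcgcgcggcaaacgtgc

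The motif lay 29 to 20 bases before the start in Tmf1 and 62 to 53 bases before it in Golga1. Of all 32851 promoter windows of this length in the RefSeq table, 0.782% held it on either strand. In Tmf1 it shared 1 base with a GC box, GGGCGG. A GC box on either strand was found in 4 of the 8 golgins with a promoter entry (Tmf1, Golga1, Golga5 and Gcc1) and in 32.7% of all windows. The ETS motif CCGGAAG was found in 3 of the 8 (Golga1, Golga2 and Golga3, 6.91% of all windows) and CCAAT in 2 (Golga2 and Golga3, 33.8%). CACGTG and TATAAA were found in Golga5 alone of the 8 (6.02% and 12.4% of all windows). The GC content was 68.4% for Tmf1 and 69.6% for Golga1, against a median of 52.4% over all windows. Their windows held 29 and 32 CpG, against a median of 6, and 6.78% and 4.58% of all windows held as many. The shares given for the motif and the shared run are over all windows, and windows of like CpG count were not taken apart. The shared run was itself picked by comparing these 2 windows. A match is a description of letters only. Golga4 and Golgb1 had no entry in the table used.

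Genes that act with golgins were examined as 8 lists. Of 180 listed genes, 179 were matched, 10 of them by an older symbol, and 177 lay above the lowest mean level. None was called at adjusted p under 0.05. At an unadjusted p under 0.05 by the authors' test 7 were higher and 2 lower, or 3.95% and 1.13% of the 177. Over the 17400 genes of the whole table above the lowest level, 3.51% were higher and 2.84% lower, and over all rows 2.79% and 2.25%. The list medians ran from -0.13 to 0.11 on the log2 scale, beside 0.0033 over the 17400 genes above the lowest level. No listed gene at or above the median level reached the fold change of Tmf1, and the highest was 1.44.

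**Figure D4:**
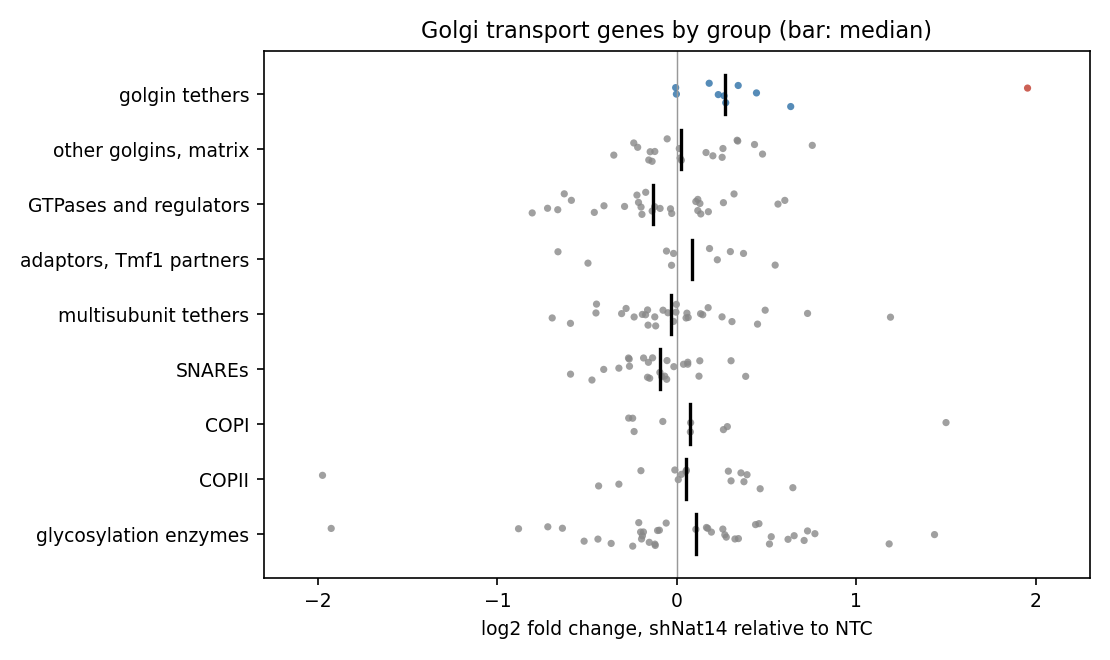
Log2 fold change (shNat14 relative to NTC) of each gene above the lowest level in the golgin family and in 8 lists of Golgi transport genes, 1 point per gene, with a bar at the list's median. Tmf1 (red, 1.95) lies to the right of all other points shown, and the medians of the 8 lists lie between -0.13 and 0.11.

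The GTPases that recruit golgins, with their regulators, had a median log2 fold change of -0.13, with 10 of 28 genes positive and none at unadjusted p under 0.05. The authors' deposited table had Rab6a, a GTPase bound by Tmf1 and listed as Rab6, at 0.60 (mean log2 CPM 8.43, p = 0.139) and its relative Rab6b at -0.09. For Ric1 and Rgp1, which together activate Rab6, the authors' deposited table gave -0.66 and -0.72 (p = 0.234 for Ric1 and p = 0.12 for Rgp1). Arl1, the GTPase that recruits golgin-97 and golgin-245, had 0.26 by the authors' deposited table (p = 0.333). By the authors' deposited table the smallest p here belonged to Rab2a (0.56, p = 0.0838), followed by Arfgap3, a GTPase-activating protein for Arf (-0.59, p = 0.1). None of these values passed the test.

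Partners of golgins were mixed in sign. Of 10 measured genes 5 were positive and 5 negative, with a median of 0.08. Clasp2, a microtubule plus-end protein, stood at 0.55 (p = 0.0472) and its paralog Clasp1 at -0.50 (p = 0.106) in the authors' deposited table. For Tbc1d23, the adaptor that binds golgin-97 and golgin-245, the authors' deposited table gave 0.37 (p = 0.158). The tyrosine kinase Fer and the transcription factor Stat3, both described as binding Tmf1, had values of -0.02 (p = 0.955) and -0.66 (p = 0.133) by the authors' deposited table.

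Among other golgins and matrix proteins the median was 0.02, with 12 of 20 positive and 1 at unadjusted p under 0.05. That gene was Golph3, a Golgi protein that binds phosphatidylinositol 4-phosphate, at 0.75 in the authors' deposited table (p = 0.0137, adjusted p = 0.72). It was followed in the authors' deposited table by the cargo receptor Tmed2 at 0.48 (p = 0.141). Of the partners of GM130, Gorasp1, encoding GRASP65, stood at 0.03 and Uso1, encoding p115, at 0.02 in the authors' deposited table. Its partners were not examined as a set.

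The multisubunit tethers COG, GARP, EARP, TRAPP and Dsl1 do the same task as golgins without a long coiled coil. Their median was -0.03, with 12 of 30 genes positive. Trappc6b, a TRAPP subunit, had 1.19 by the authors' deposited table and was the listed gene closest to the threshold (mean log2 CPM 5.83, p = 0.000183, adjusted p = 0.0805). For Vps54 of the GARP complex, which receives vesicles from endosomes, the authors' deposited table gave 0.73 (p = 0.0715). The Golgi SNAREs, which fuse the tethered vesicles, had a median of -0.09 with 7 of 25 positive and none at unadjusted p under 0.05. By the authors' deposited table Ykt6 (-0.47, p = 0.139) and Bnip1 (-0.59, p = 0.163) had the smallest p of the SNAREs.

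Vesicle coats had medians of 0.08 for COPI (5 of 9 genes positive) and 0.05 for COPII (11 of 16 positive). The authors' deposited table had Copz2, a COPI subunit isoform of low level (mean log2 CPM 0.20), at 1.50 (p = 0.0442) and Copb2 at 0.28 (p = 0.256). For the COPII subunits Sec13 and Sec23a the authors' deposited table gave -0.44 (p = 0.0807) and 0.39 (p = 0.124). Glycosylation enzymes, cargo of the vesicles that golgins catch, had a median of 0.11 with 20 of 39 positive, 3 higher and 2 lower at unadjusted p under 0.05. The mannosidases Man1a and Man1c1, which trim N-glycans, had opposite signs by the authors' deposited table, 1.44 (p = 0.00177, adjusted p = 0.292) and -1.93 (p = 0.00187, adjusted p = 0.301). Their mean log2 CPM was 2.80 and 1.75, beside a median of 1.71 over all genes.

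Markers of the sorted cells were checked in the same table. All 8 markers of cortical neurons were present at 6.13 to 11.3 log2 CPM, with log2 fold changes from -0.24 to 0.43. The 6 markers of cortical progenitors, the cells electroporated, ranged from -0.54 to 0.17, 4 of them negative (median -0.14). Markers of other cells differed in sign between types, with 6 of 6 negative for astrocytes (median -0.89) and for microglia (median -1.47), and 4 of 4 positive for endothelium (median 1.43) and for choroid plexus (median 0.91). Many of these rest on low levels. Mean log2 CPM ran from -0.43 to 2.81 for microglia, -0.53 to 3.20 for endothelium, -2.08 to 8.52 for choroid plexus and 0.25 to 9.59 for astrocytes. For interneurons 4 of 5 were negative (median -0.67) and for meninges 3 of 4 (median -0.84). Of the erythroid markers Hba-a1 was at the lowest level and Alas2 stood at -1.36. None of the 44 markers above the lowest level was called, but 11 had an unadjusted p under 0.05 by the authors' test, all of them lower. Of the 17400 genes above the lowest level, 2.84% were lower at that threshold, and 5.04% of all genes passed it in either direction. These 11 were 4 of 6 microglia, 3 of 5 interneuron, 2 of 6 astrocyte and 1 of 4 meningeal markers, and the erythroid Alas2. Fewer cells of a type and less RNA per cell cannot be told apart in bulk samples, and the part of such shifts in the value of Tmf1 was not tested.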

How the data were processed

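The data used were the authors' own comparison of shNat14 with NTC. Per the file headers each gene has log2 values deposited by the authors (a fold change and a mean CPM) and deposited p-values, raw and adjusted as a false discovery rate, which were used unaltered. The deposited false discovery rate equals a Benjamini-Hochberg adjustment of the deposited p-values over all 21937 rows to within 4.05e-05. Tools listed in the submitters' processing notes are HTSeq 0.5.4p1, TopHat2 2.0.8, SAMtools 0.1.19 and DESeq, with the build hg19. That build is human and the gene symbols are mouse, so the table's own build is not settled, and the only coordinates given are those of the RefSeq promoter sequences in their own build. The column names (logFC, logCPM, PValue, FDR) are not those DESeq writes, though the notes name it, so the tool that gave the p-values is not certain. Not given in the sources used here are the authors' test, filters, normalization and prior count, and depth is unknown.

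The members and lists were chosen with earlier results of these data known. Named genes were all members, Nat14, the 2 listed genes with the smallest p in each list, the 2 RefSeq neighbours on each side of Tmf1, the 3 genes nearest to it and the genes beside the threshold. Other listed genes, Arl6ip5, Xist, the Y-linked genes, the motifs and the promoters shown were chosen after values or sequences were seen. Genes at the lowest mean level (log2 CPM -3.09, 4537 rows) were left out of list counts. Exon lengths and overlaps came from GENCODE M21 on GRCm38, and older symbols, gene order and promoters from RefSeq GRCm38.p6. Rab1a was not matched, and the values of 1 listed gene are not reported here. Python 3.11.15 was used, and the adjustment was tested on simulated p-values.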

Additional observations from a re-analysis of the deposited data

How the results depend on the processing

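Under all 6 other thresholds, adjustments and minimum fold changes tried, 1 golgin was called. That count adds no support, since Tmf1 was chosen for its call. The smallest unadjusted p of the others was 0.0989 by the authors' test. Re-centring on the median of other genes moved Tmf1 to between 1.92 and 1.95 on the log2 scale. It takes the same constant, 0.0033 or 0.0323, from every gene, so it could move no value further. The median of the other 9 golgins lay between 0.23 and 0.27 over re-centring, a level filter and leaving out each member in turn. The 24 re-centred or filtered medians of the 8 Golgi lists each moved by at most 0.1. The number of all genes called, 34 as deposited, was 19 at adjusted p under 0.01, 55 at adjusted p under 0.1, 17 with Bonferroni correction and 16 with adjustment limited to the upper part of the table by mean level (at or above its median). The length used for levels per kb was varied after the data were seen, and moved Golga3 from 1.30 to 2.03 and Golga4 from 2.56 to 4.59 CPM per kb. Leaving out single libraries was not run, since the table used has no values per library. No paired analysis was possible because single libraries have no values there. The fold changes of Copz2 and Tafa4 rest on low mean levels, as do those of some endothelial, microglial and choroid plexus markers.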
